A study of Mus musculus with 3 samples.

Results

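The 10 genes of elastic fibers and microfibrils were followed here across 3 Affymetrix mouse arrays of back skin. They were chosen by name, as genes whose products build or bind these fibers. The list holds Eln, Fbn1, Fbn2, Mfap2, Mfap4, Mfap5, Fbln1, Fbln2, Fbln5 and Efemp2, and all probe sets that the platform annotation gives to these symbols were taken. Of the 10 genes, 8 had at least 1 named probe set, with 16 probe sets between them, out of 18193 genes and 45037 probe sets in the series. No probe set is named for Fbn1 or Efemp2 in the annotation used here, and their signals were not analysed here.

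Each array held pooled RNA from the back skin of 1 group of male mice, with the dermal white adipose tissue removed. The KOE group was Interleukin-10 (IL-10) knockout mice given an AIN-93-based diet supplemented with 8% powdered eggshell membrane (pESM), the KO group was IL-10 knockout mice on the diet without pESM, and the WT group was C57BL/6J mice on that same diet. The groups held 6 KOE, 7 KO and 5 WT mice, all housed singly, with feeding begun at 4 weeks of age and lasting 28 weeks. The study asked whether eating pESM alters the skin of IL-10 KO mice, which it used as a model of frailty and aging. The KO mice were bred from B6.129P2-IL-10tm1Cgn/J males and C57BL/6J females, the WT mice are not described as their littermates, and the sources used here do not say whose RNA went into each pool.

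Elastic fibers give skin its recoil. They consist of a core of elastin, made from soluble tropoelastin that is crosslinked by lysyl oxidases, and a mantle of microfibrils built on fibrillins. Microfibril-associated proteins and fibulins bind to one or both of these components, and fibrillin microfibrils also hold TGF-beta and bone morphogenetic proteins in the matrix. Most elastin is laid down by fibroblasts and smooth muscle cells early in life and is replaced slowly afterwards.

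Promoter sequence was found for 4 of the 8 genes with a signal. It is shown because these 4 genes split by direction in the KO array. Mfap2 and Fbln2 had lower signals there than in WT, and Fbln1 and Fbln5 had higher ones. Only the difference in Fbln5, a ratio of 1.52, reached 1.5-fold. Each line gives the 250 bases before the first listed start of the gene, on the strand of the gene, from RefSeq on GRCm38.p6. Capitals mark the GC box GGGCGG, read on both strands so that CCGCCC also counts. The windows are chr4:141010431-141010680 on the plus strand for Mfap2, chr6:91212514-91212763 on the plus strand for Fbln2, chr12:101819120-101819369 on the minus strand for Fbln5 and chr15:85205699-85205948 on the plus strand for Fbln1.
Mfap2: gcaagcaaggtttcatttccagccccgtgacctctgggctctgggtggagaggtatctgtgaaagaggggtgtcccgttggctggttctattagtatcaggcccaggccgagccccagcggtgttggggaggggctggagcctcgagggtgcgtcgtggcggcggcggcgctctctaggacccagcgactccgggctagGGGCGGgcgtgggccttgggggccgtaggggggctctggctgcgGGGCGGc
Fbln2: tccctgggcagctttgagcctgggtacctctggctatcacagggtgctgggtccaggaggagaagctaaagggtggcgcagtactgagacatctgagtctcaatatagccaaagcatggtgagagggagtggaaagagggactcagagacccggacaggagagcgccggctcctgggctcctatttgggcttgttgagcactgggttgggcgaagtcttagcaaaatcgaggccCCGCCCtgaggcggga
Fbln5: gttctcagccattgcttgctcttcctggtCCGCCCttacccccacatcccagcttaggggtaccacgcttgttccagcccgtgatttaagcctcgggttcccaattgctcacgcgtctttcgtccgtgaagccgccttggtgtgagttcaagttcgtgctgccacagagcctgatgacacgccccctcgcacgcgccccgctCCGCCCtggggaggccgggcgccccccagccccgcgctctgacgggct
Fbln1: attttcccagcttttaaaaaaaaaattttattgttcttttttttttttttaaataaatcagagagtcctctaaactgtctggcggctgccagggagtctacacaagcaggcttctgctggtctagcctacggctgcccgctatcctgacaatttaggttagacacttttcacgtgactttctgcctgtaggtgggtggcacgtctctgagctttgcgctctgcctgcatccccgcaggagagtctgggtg

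Mfap2 held 2 GC boxes, which begin 51 and 7 bases before the start, and 68.8% of its bases were G or C. Fbln2 held 1 GC box, 16 bases before the start, and Fbln5 held 2, at 221 and 48 bases, with 58.8% and 65.2% G or C. Fbln1 held no GC box and had 46.4% G or C. A GC box was present in 32.9% of the same windows over 27025 genes, whose median G or C content was 52%. The TATA box TATAAA was in none of the 4 windows and in 13.0% of all windows, while the E-box CANNTG was in Fbln1, Fbln2 and Fbln5 and in 66.0% of all windows. The 2 genes on each side of the KO to WT comparison therefore did not share a motif count that set them apart from the other 2, and these matches are a description of letters only.

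The authors' values are linear signal intensities, set to a 2% trimmed mean of 500 on each array. A signal of 40 or more, which the methods ask for, was reached by 31298 probe sets in KOE, 29390 in KO and 30769 in WT, and the median signal was 108, 96.3 and 116 in that order. Each gene is given at the brightest of its probe sets on average. It passed the cut-off when its signals differed by 1.5-fold or more and either array of the pair reached 40. Since every group is a single array, differences carry no replicate error and no p-value, and the ratios compare these pools and not the mice within them. As the only measure of spread, log2 ratios of KO to WT differed between probe sets of 1 gene with an SD of 0.35 over 6055 genes, or 0.49, 0.30 and 0.16 at mean signals of 40 to 200, 200 to 1000 and above. The same SD was 0.42, 0.24 and 0.15 for KOE vs. KO. It compares probe sets on the same arrays and does not measure variation between pools or mice. Scaling the arrays to a common median instead moved the median log2 ratio of all genes by 0.28 in KO vs. WT, −0.16 in KOE vs. KO and 0.11 in KOE vs. WT, and values under that scaling carry these shifts. Il10 itself had signals of 401 in KOE, 679.9 in KO and 17.0 in WT. Whether its probe set lies in the altered part of the gene was not determined, so these signals do not check the labels.

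Eln, which encodes tropoelastin, was lower in KO skin than in KOE and WT skin. Its signal was 739 in KOE, 422 in KO and 713 in WT. The KO array stood below the other 2, which differed from each other by a ratio of 1.04. Eln was 1.69-fold lower in KO than in WT, a log2 ratio of −0.76, and 1.75-fold higher in KOE than in KO, a log2 ratio of 0.81. Both are larger than the SD between probe sets at such signals, 0.30 and 0.24, which does not measure variation between pools or mice. Of all genes compared, 10.7% had a lower ratio of KO to WT than Eln, and 7.18% had a higher ratio of KOE to KO. A second probe set for Eln had signals of 20.3, 19.1 and 19.4 in KOE, KO and WT, under the limit of 40, so the Eln result rests on 1 probe set. After scaling the arrays to a common median, the log2 ratio of KO to WT was −0.49, and with the mean of both probe sets it was −0.39, each short of the cut-off. The log2 ratio of KOE to KO was also short of it with that mean, at 0.45.

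Fbn2 encodes fibrillin-2, a microfibril scaffold protein that is made mainly during development. Its stronger probe set had signals of 98.5 in KOE, 154 in KO and 132 in WT. KOE was the lowest of the 3 arrays, 1.56-fold below KO with a log2 ratio of −0.64, while KO was 1.17 times WT. The other probe set of Fbn2 read 66.2, 85.9 and 87.9 in the same order, and its ratio of KOE to KO, 0.770, did not reach the cut-off. Both probe sets put KOE lowest, at 0.748 and 0.753 of WT, and they differed in which of KO and WT was higher. With the median over both probe sets the log2 ratio of KOE to KO was −0.51, and with 40 added to every signal −0.48, each short of the cut-off, where the SD between probe sets at such signals is 0.42.

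Mfap4, Mfap2 and Mfap5 encode proteins that bind microfibrils, and all 3 had lower signals in KO than in WT. Mfap4, a fibrinogen-domain protein that binds elastin and fibrillin, had signals of 827 in KOE, 498 in KO and 1970.1 in WT. The 3 arrays were all apart, with WT highest and KO lowest. Mfap4 was 3.95-fold lower in KO than in WT, a log2 ratio of −1.98, against an SD of 0.16 between probe sets at such signals, and 3.01% of all genes had a lower ratio. In KOE it was 1.66-fold higher than in KO, a log2 ratio of 0.73, and 2.38-fold lower than in WT, a log2 ratio of −1.25. Mfap4 has 1 named probe set, so no second one stands beside it, and after scaling to a common median the log2 ratio of KOE to KO was 0.57, short of the cut-off.

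Mfap5, a glycoprotein that binds fibrillin, had signals of 241 in KOE, 264 in KO and 443 in WT at its stronger probe set. Both arrays of knockout skin were below WT and lay close to each other. The fold was 1.68 lower in KO than in WT and 1.84 lower in KOE than in WT, with log2 ratios of −0.75 and −0.88, while the ratio of KOE to KO was 0.911. At the weaker probe set, with 132, 118 and 188 in KOE, KO and WT, the ratio of KO to WT was 0.627 and past the cut-off, and that of KOE to WT was 0.705 and short of it. Scaling to a common median left the KO to WT ratio of Mfap5 short of the cut-off.

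Mfap2, the close relative of Mfap5, had signals of 1379 in KOE, 1126 in KO and 1618 in WT. No pair of arrays passed the cut-off, its log2 ratios being −0.52 in KO vs. WT, 0.29 in KOE vs. KO and −0.23 in KOE vs. WT. Its second probe set read 359, 317 and 387 and gave the same order of the arrays.

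The fibulins went different ways. Fbln5 encodes fibulin-5, which tethers tropoelastin to microfibrils and cells and is needed for elastic fiber formation in mice. Its signal was 1382 in KOE, 2036 in KO and 1336 in WT. The KO array stood above the other 2, with a ratio of 1.52 to WT and a log2 ratio of 0.61, and KOE was 1.03 times WT. The ratio of KOE to KO was 0.679, a log2 ratio of −0.56 that did not reach the cut-off, and −0.72 after scaling to a common median. The KO to WT ratio of Fbln5 lay so near the limit that quantile normalization, loess normalization and scaling on the median of well-measured genes each left it short, with log2 ratios between 0.54 and 0.58. A second probe set for Fbln5, at 7.98, 9.09 and 7.89, was under 40 in every array.

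Fbln1 encodes fibulin-1, found in elastin cores and basement membranes, and had signals of 1287 in KOE, 1752 in KO and 1209 in WT. KO was again the highest array, but neither the log2 ratio of 0.53 for KO vs. WT nor that of −0.44 for KOE vs. KO passed the cut-off. Both did after scaling to a common median, at 0.80 and −0.60. The other 2 probe sets of Fbln1 read 929.9, 1218 and 1032 and 122, 143 and 106 in KOE, KO and WT. All 3 probe sets put KO highest, with ratios of KO to WT of 1.45, 1.18 and 1.35.

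Fbln2 encodes fibulin-2, which lies between the elastin core and the microfibrils. It had signals of 879.6 in KOE, 742 in KO and 1000.3 in WT, and none of its ratios passed the cut-off, with a log2 ratio of −0.43 in KO vs. WT and 0.25 in KOE vs. KO. KO was thus the lowest array for Fbln2 and the highest for Fbln1 and Fbln5. A second Fbln2 probe set was under 40 everywhere.

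**Figure D1:**
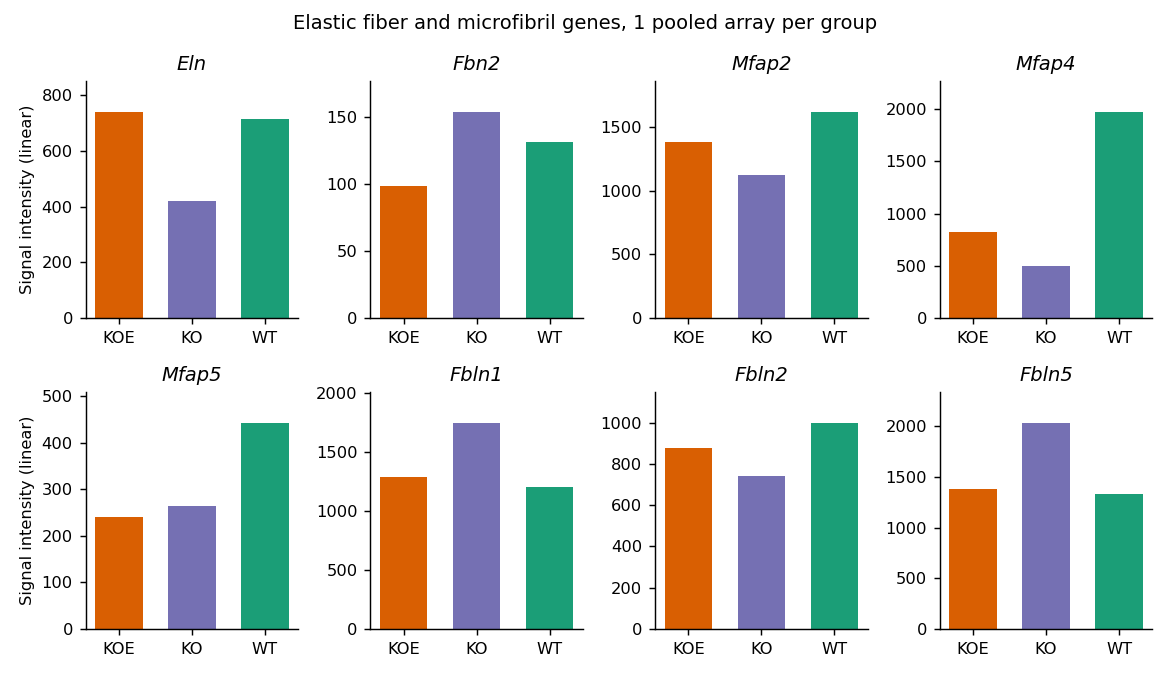
Signal intensity (linear, each axis from 0) of the 8 genes at the probe set read, as 1 bar per pooled array for KOE, KO and WT. Eln and Mfap4 have their lowest bar in KO at 422 and 498, Fbln5 has its highest bar in KO at 2036, and Fbn2 and Mfap5 have their lowest bars in KOE at 98.5 and 241.

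Counted over the 8 genes, KO vs. WT gave 1 higher (Fbln5), 3 lower (Eln, Mfap4 and Mfap5) and 4 not past the cut-off. Over all 14495 genes compared, 10.9% were higher and 14.5% lower. After scaling to a common median 2 of the 8 genes were higher and 1 lower, where 23.2% of all genes were higher and 8.88% lower. The median log2 ratio of the 8 genes was −0.48, and that of all genes was 0.01, or −0.21 and 0.29 after scaling to a common median. Over the 13 probe sets that reached 40, 1 was higher and 4 were lower, against 10.6% and 20.2% of all probe sets. The other 3 probe sets stayed under 40 in every array.

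KOE vs. KO gave 2 higher (Eln and Mfap4), 1 lower (Fbn2) and 5 not past the cut-off, where 10.9% of 14594 genes were higher and 5.33% lower. The median log2 ratio was 0.06 for the 8 genes and 0.02 for all, or −0.10 and −0.14 after scaling to a common median, when 1 of the 8 genes was higher and 3 were lower and the shares of all genes were 8.03% and 9.01%. Over probe sets the counts were likewise 2 and 1, against 14.5% and 5.93% of all probe sets. Every fold in this comparison was under 2, and the log2 ratios ran between −0.64 and 0.81.

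KOE vs. WT gave 0 higher, 2 lower (Mfap4 and Mfap5) and 6 not past the cut-off, where 12.4% of 14784 genes were higher and 10.4% lower. The median was −0.21 for the 8 genes and 0.05 for all. When every gene's probe sets were averaged 3 were lower, where 11.6% of all genes were, Fbln2 being the third at −1.45. That Fbln2 mean includes a probe set under 40, at 1.48 in KOE and 9.79 in WT, and the probe set read gave −0.19. After scaling to a common median the counts were again 0 and 2, where 16.6% of all genes were higher and 8.33% lower. Over probe sets the counts were 0 and 2, against 13.2% and 14.5%. Apart from Mfap4 and Mfap5, the log2 ratios lay between −0.42 for Fbn2 and 0.09 for Fbln1. With 8 genes such counts are a description, and nothing particular to these genes is read from them.

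**Figure D2:**
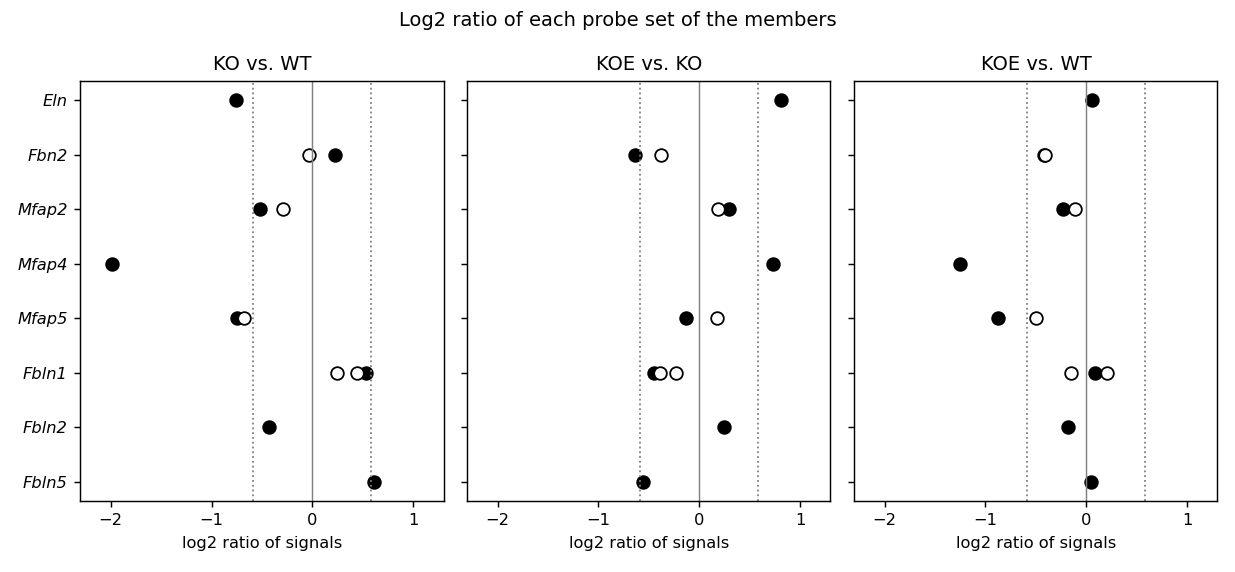
Log2 ratio of signals for every probe set that reached 40, in 3 panels of 1 comparison each, with filled points for the probe set read, open points for the other probe sets of the same gene, and dotted lines at 1.5-fold. Mfap4 lies farthest to the left in KO vs. WT at −1.98 and in KOE vs. WT at −1.25, and Eln lies farthest to the right in KOE vs. KO at 0.81.

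KO vs. WT and KOE vs. KO share the KO array, so an error in that array enters both with opposite signs. In Mfap2, Mfap4, Fbln1, Fbln2 and Fbln5 the KOE signal lay between those of KO and WT, in Eln it was slightly above WT, and in Fbn2 and Mfap5 it was below both. For Mfap5 this holds at the stronger probe set alone. The weaker one was higher in KOE than in KO, and the mean or median over both gave a log2 ratio of 0.02. A second probe set of Fbln1 also put KOE below both, at 929.9 in KOE, 1218 in KO and 1032 in WT. For Fbln5 the log2 ratio of KOE to WT was −0.003 after loess normalization, so KOE was then not above WT. Differences between genes on the same arrays do not depend on a constant scaling of an array. In KO vs. WT, Eln minus Fbln5 was −1.37 on the log2 scale, and Mfap4 minus Fbln5 was −2.59, the full range of the 8 genes. In KOE vs. KO, Eln minus Fbln5 was 1.37 and Eln minus Fbn2 was 1.45, again the full range. In KOE vs. WT, Eln and Fbln5 differed by 0.00, while Mfap4 minus Eln was −1.30. Within the proteins that bind microfibrils, Mfap4 minus Mfap2 was −1.46 in KO vs. WT and −1.02 in KOE vs. WT, and Mfap5 minus Mfap2 was −0.22 and −0.65. These pairs include the extremes of the 8 genes, so the differences are a description with no replicate error.

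**Figure D3:**
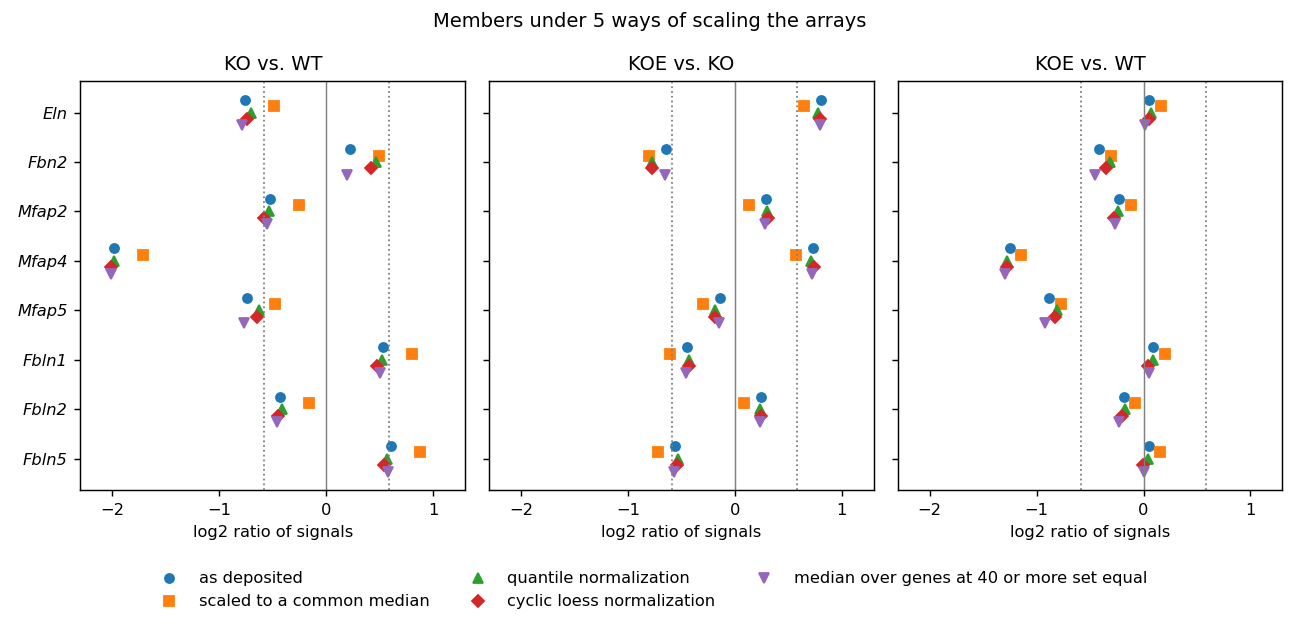
Log2 ratio of signals for the 8 genes in the 3 comparisons under 5 ways of scaling the arrays, with dotted lines at 1.5-fold. Mfap4 stays left of the limit in KO vs. WT and KOE vs. WT under all 5, while Eln moves inside the limit in KO vs. WT when the arrays are scaled to a common median (−0.49).

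The 5 genes with ratios most like those of Eln were found by distance in the log2 ratios of KO and of KOE to WT, among 7333 genes with a mean signal of at least 500. Gpc1, a cell surface heparan sulfate proteoglycan, was nearest at a distance of 0.0138, with signals of 1082 in KOE, 609 in KO and 1035 in WT. Sparc, a matrix glycoprotein that binds collagen, followed at 0.0708 with 33122 in KOE, 18864 in KO and 33064 in WT. Itm2a, a membrane protein, lay at 0.0710, Spon2, a secreted matrix protein, at 0.0820 and Dmd, which encodes dystrophin of muscle membranes, at 0.0825. The nearest of the elastic fiber genes, Mfap2 and Fbln2, lay at 0.37 and 0.40, and Mfap4 lay farthest at 1.79. These distances rest on 3 arrays and are a description.

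Of 28 listed genes that assemble and crosslink elastic fibers, 25 had a named probe set, and in KO vs. WT 5 were higher and 5 lower, where 10.9% and 14.5% of all genes were, with a median log2 ratio of −0.01, or 0.26 after scaling to a common median. In KOE vs. KO 2 were higher and 2 lower, where 10.9% and 5.33% of all genes were. The median was 0.12, or −0.04 after that scaling. In KOE vs. WT 5 were higher and 1 lower, where 12.4% and 10.4% of all genes were. The KO vs. WT counts under that scaling were 10 higher and 3 lower, where 23.2% and 8.88% of all genes were. Lox, lysyl oxidase, had signals of 2905 in KOE, 1721 in KO and 3577 in WT, with a log2 ratio of −1.06 in KO vs. WT and 0.76 in KOE vs. KO. KO was the lowest array, as for Eln. Ltbp3, a latent TGF-beta binding protein, had 2265 in KOE, 1483 in KO and 3093 in WT, with log2 ratios of −1.06 and 0.61, the second short of the cut-off at 0.45 after scaling to a common median.

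Vcan, the proteoglycan versican that binds fibrillin and fibulins, was low in both arrays of knockout skin, at 493 in KOE and 469 in KO, against 999 in WT. Efemp1, the fibulin-3 gene, had 3939 in KOE, 6231 in KO and 3597 in WT, so it was higher in KO than in WT by a log2 ratio of 0.79 and lower in KOE than in KO by −0.66. Emilin2, of the elastin-microfibril interface proteins, had 293 in KOE, 525 in KO and 298 in WT. Both had their highest signal in KO, as Fbln5 and Fbln1 did. Pcolce, an enhancer of procollagen C-proteinase, had 5924 in KOE, 4825 in KO and 6961 in WT and passed no cut-off as deposited. After quantile and loess normalization it did pass as lower in KO vs. WT, at −0.59 and −0.67.

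Of 15 genes for elastin-degrading enzymes and their inhibitors, 2 were higher and 3 lower in KO than in WT, where 10.9% and 14.5% of all genes were. After scaling to a common median 3 were higher and 1 lower, where 23.2% and 8.88% of all genes were. The median log2 ratio was then 0.16, against −0.11 as deposited. Of the 14 compared between KOE and KO, 1 was higher and 1 lower, where 10.9% and 5.33% of all genes were. Their median was 0.08, or −0.08 after that scaling. After quantile or loess normalization 0 were higher, where 7.71% and 7.15% of all genes were. Slpi, an inhibitor of neutrophil elastase, had 295 in KOE, 565 in KO and 164 in WT, with a log2 ratio of 1.78 in KO vs. WT and −0.94 in KOE vs. KO. Its highest signal was in KO. Timp1, an inhibitor of metalloproteinases, had 138 in KOE, 97.0 in KO and 153 in WT, and its log2 ratio of −0.66 for KO vs. WT was short of the cut-off under 3 of 4 other scalings. The elastin-degrading cathepsins did not pass the cut-off, with log2 ratios of KO to WT of −0.52 for Ctsk and 0.22 for Ctss, and of KOE to KO of 0.45 and −0.52. Ctsk did pass as lower in KO than in WT after quantile and loess normalization, at −0.60 and −0.70, and Ctss as lower in KOE than in KO after scaling to a common median, at −0.68. Ctsl, Timp2 and Cst3, the other strongly measured genes of the list, passed no cut-off in these comparisons.

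Of 12 integrin and other receptors, 2 were higher and 1 lower in KO than in WT, and 1 was higher in KOE than in KO, with medians of 0.09 and 0.07, or 0.36 and −0.09 after scaling to a common median. The shares of all genes were 10.9% and 14.5% in KO vs. WT and 10.9% for higher in KOE vs. KO. Scaling to a common median gave 4 higher in KO vs. WT, where 23.2% of all genes were. Under that scaling, quantile and loess 0 were higher in KOE vs. KO, where 8.03%, 7.71% and 7.15% of all genes were. Tgfbr2, a TGF-beta receptor, had 7769 in KOE, 9608 in KO and 5329 in WT, with a log2 ratio of 0.85 in KO vs. WT and −0.31 in KOE vs. KO. Itgav, Itgb1 and Cd36, the other strongly measured receptors, and Itgb3, Itga8 and Itgb8 did not pass in either comparison. Under 3 of 4 other scalings Itgb3 did pass as higher in KO, with log2 ratios of 0.77, 0.74 and 0.68 against 0.50 as deposited. Itga8 did so after scaling to a common median alone, at 0.65 against 0.38 as deposited. Itga5, a fibronectin receptor subunit, had 72.5 in KOE and 50.5 in KO, against 6.31 in WT, which is under the limit of 40. Itgb6, named after its values were seen, was the gene lower in KO vs. WT and higher in KOE vs. KO. Its signals were 55.2 in KOE, 35.6 in KO and 78.5 in WT, so KO was under 40.

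Of 8 TGF-beta family ligands, 1 was higher and 3 lower in KO than in WT, where 10.9% and 14.5% of all genes were, and 3 were higher in KOE vs. KO against 10.9% of all genes, with median log2 ratios of −0.04 and 0.38, or 0.29 and 0.22 after scaling to a common median. Under that scaling 1 of 7 was lower in KO than in WT, where 8.88% of all genes were. Bmp5, named after its values were seen, had the largest differences, with log2 ratios of −2.34 and 2.05, and its KO signal was under 40. Gdf5, also named after its values were seen, passed in both comparisons, with 40.6 in KOE, 19.3 in KO and 41.5 in WT. Tgfb2 had 622 in KOE, 362 in KO and 634 in WT, with log2 ratios of −0.81 and 0.78, and the first was short of the cut-off at −0.54 after scaling to a common median. KO was again the lowest array. Bmp2 had 2126 in KOE and 2163 in KO, against 1272 in WT. Tgfb1, Tgfb3, Bmp4 and Bmp7 passed no cut-off in these comparisons.

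**Figure D4:**
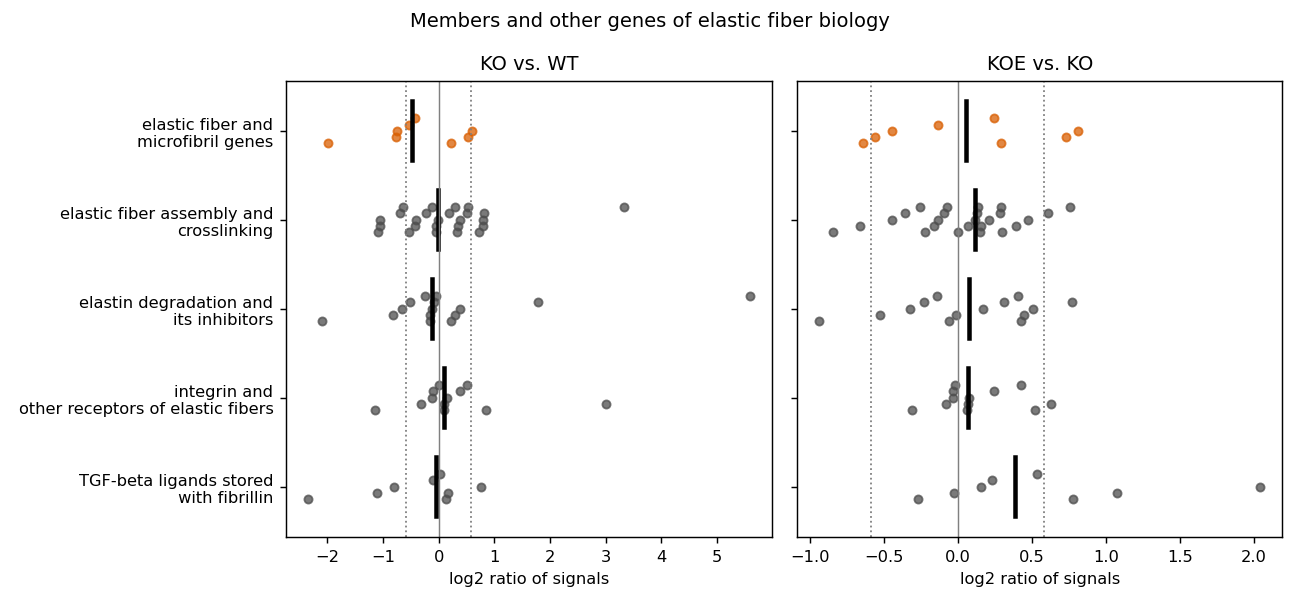
Log2 ratio of signals in KO vs. WT and KOE vs. KO, with 1 point per gene for the 8 elastic fiber genes (orange) and for 4 lists of related genes (grey), bars at the medians and dotted lines at 1.5-fold. The medians in KO vs. WT are −0.48 for the elastic fiber genes and −0.01, −0.11, 0.09 and −0.04 for the lists below them, of which all but the receptors change sign after scaling to a common median.

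Markers of several cell types differed between the same arrays, and in pooled tissue fewer cells of a type and less RNA per cell cannot be told apart. Of 20 markers of dermal fibroblasts, which make most dermal elastin, all reached 40 in every array, and their summed signal was 196245 in KOE, 164626 in KO and 195006 in WT. In KO vs. WT 0 were higher and 3 lower, where 10.9% and 14.5% of all genes were, with a median log2 ratio of −0.18. In KOE vs. KO 2 were higher and 0 lower, where 10.9% and 5.33% of all genes were, with a median of 0.15. Both medians have the opposite sign after scaling to a common median, at 0.09 and −0.01. Dcn, which encodes decorin, was near level at 30539 in KOE, 32111 in KO and 32743 in WT, while Col3a1 had 33914 in KOE, 23146 in KO and 33961 in WT and passed no cut-off as deposited. After quantile and loess normalization Col3a1 did pass as lower in KO vs. WT, at −0.63 and −0.75. Then 4 and 6 of the 20 markers were lower, where 10.9% and 11.8% of all genes were. The 3 markers lower as deposited, named here after their values were seen, were Col1a1, Fn1 and Col6a1, which encode matrix proteins. Col1a1 had signals of 16038 in KOE, 5880.4 in KO and 16664 in WT, a log2 ratio of −1.50 in KO vs. WT and 1.45 in KOE vs. KO, the same directions as Eln, and passed the cut-off in both under all 4 other scalings. Fn1 had 1810.3 in KOE, 1473 in KO and 2939 in WT. Col6a1 had log2 ratios of −0.68 in KO vs. WT and 0.63 in KOE vs. KO, both short of the cut-off after scaling to a common median.

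Vascular smooth muscle, which makes the elastin of vessel walls, had a summed signal over 12 markers of 39988 in KOE, 38286 in KO and 25287 in WT. In KO vs. WT 8 were higher and 0 lower, where 10.9% and 14.5% of all genes were, with a median of 0.66. In KOE vs. KO none passed the cut-off, where 10.9% of all genes were higher and 5.33% lower. Acta2, smooth muscle actin, had 15283 in KOE, 14036 in KO and 9096 in WT. Rgs5, Pdgfrb, Notch3 and Smtn did not pass in KO vs. WT, with log2 ratios of 0.45, 0.09, −0.16 and −0.40. Eln and Mfap4 were lower in the KO array, where the other 8 markers were higher. The part of smooth muscle in the Eln and Mfap4 ratios was not tested. Markers of blood endothelium had sums of 5944 in KOE, 5310.1 in KO and 3613 in WT.

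Skeletal muscle and adipocyte markers had their lowest sums in the KO array, as Eln and Mfap4 did. The 18 skeletal muscle markers summed to 60544 in KOE, 19446 in KO and 42939 in WT, with 15 lower and 1 higher in KO than in WT (median −1.57) and 16 higher in KOE than in KO (median 1.97). The adipocyte list, with 8 of 10 genes named, summed to 26393 in KOE, 9586 in KO and 34284 in WT. Of these, 7 were lower in KO than in WT (median −2.07) and 7 higher in KOE than in KO (median 1.38). Of all genes, 14.5% were lower and 10.9% higher in KO vs. WT, and 10.9% were higher in KOE vs. KO. Fabp4, of fat cells, was measured at 9406 in KOE, 4731 in KO and 15268 in WT although the dermal fat had been removed. The part of these tissues in the Eln and Mfap4 ratios was not tested.

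For hair shaft and root sheath genes, 11 of 13 listed were named, and they summed to 1153 in KOE and 1250.0 in KO, against 161491 in WT. All 11 were below WT past the cut-off in the KOE and the KO array, as were Mfap4 and Mfap5. Of all genes, 10.4% and 14.5% were. Epidermal markers had sums of 194643 in KOE, 187569 in KO and 156973 in WT. Macrophage markers summed to 15715 in KOE, 25071 in KO and 20833 in WT, with the highest sum in KO. In KO vs. WT 0 of 10 passed the cut-off, and Cd68, Adgre1, Csf1r and Fcgr1 were lower in KO. After scaling to a common median 6 were higher, where 23.2% of all genes were. In KOE vs. KO 0 were higher and 6 lower as deposited, where 10.9% and 5.33% of all genes were. Cartilage markers were near the limit of 40, with 3 of 6 at or above it in KOE, 1 in KO and 2 in WT. The part of these cell types in the ratios of the elastic fiber genes was not tested.

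**Figure D5:**
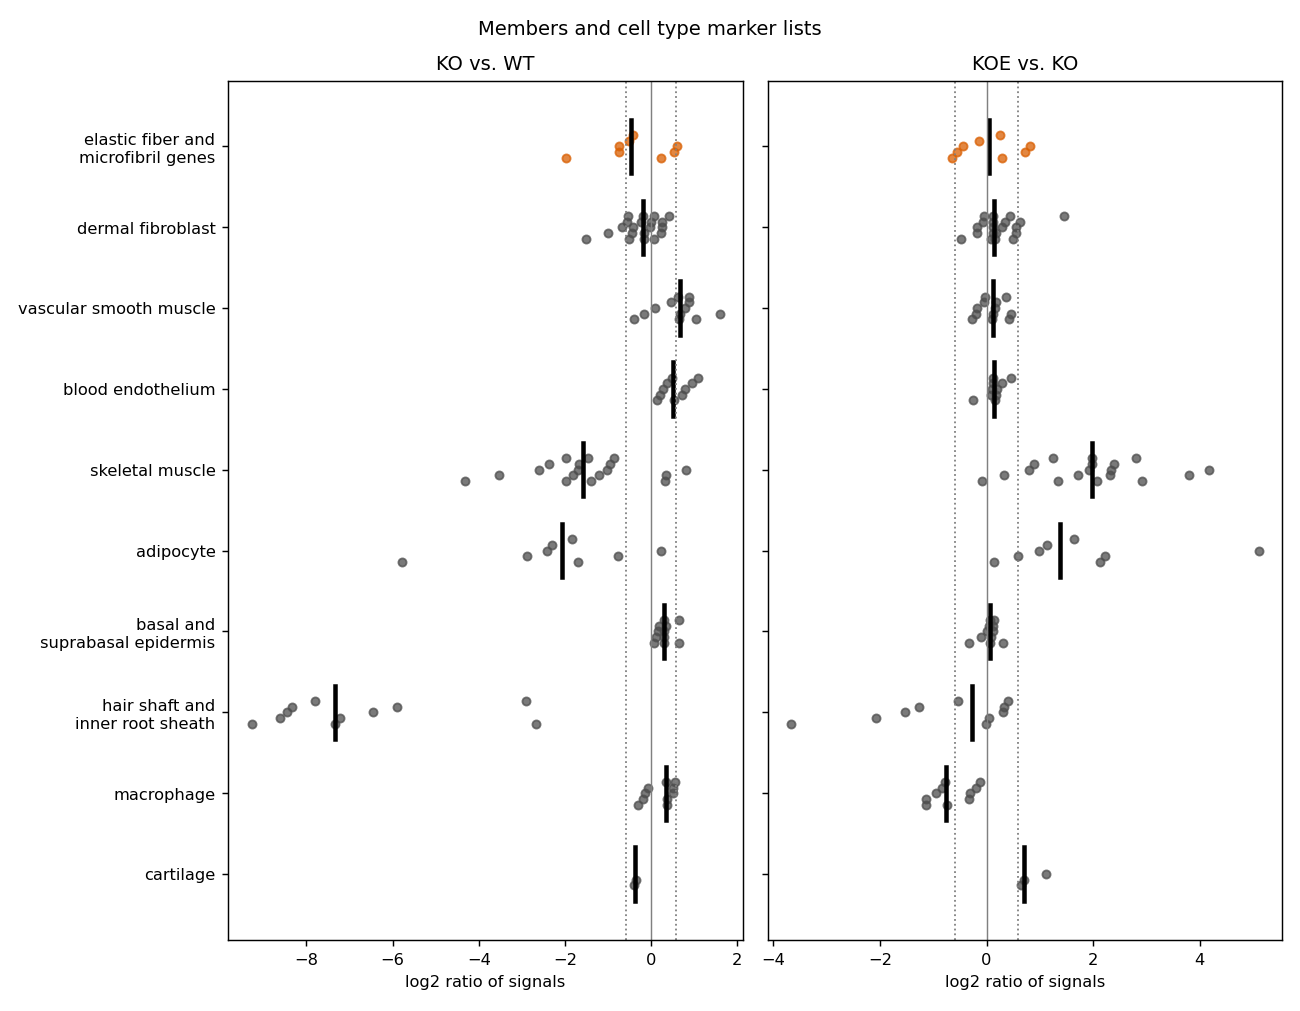
Log2 ratio of signals in KO vs. WT and KOE vs. KO, with 1 point per gene for the 8 elastic fiber genes (orange) and for lists of cell type markers (grey), bars at the medians and dotted lines at 1.5-fold. Skeletal muscle and adipocyte medians lie at −1.57 and −2.07 in KO vs. WT and at 1.97 and 1.38 in KOE vs. KO, and the smooth muscle median in KO vs. WT lies at 0.66.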

How the data were processed

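Pooled skin RNA (250 ng) of each group was measured on 1 array. The authors deposited signal intensity values on a linear scale, made with the Affymetrix Microarray Analysis Suite algorithm in R. On each array the 2% trimmed mean was checked to be 500. Scanner files and detection calls were not used here.

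The 64 control probe sets of 45101 were left out. Of the rest, 34945 have 1 gene in the platform annotation, 932 have several and 9160 are unnamed here. Genes of 34741 probe sets were matched by identifier to current symbols. Ratios were taken from the deposited signals with no further scaling. For each gene, the brightest probe set on average was taken, with probe sets of several genes passed over. Probe sets of 1 gene can read different transcripts, and the array's gene models can be old.

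The elastic fiber genes and the lists were chosen with earlier results of these data known. Named from each gene list were the 4 members with the highest mean signal and the 3 with the largest differences in KO vs. WT and in KOE vs. KO among those with 40 in both arrays. From each marker list the 2 with the highest mean signal could be named. Of the Eln-like genes 5 were named.

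Alternatives changed the scaling between arrays (common median, quantile, cyclic loess, span 0.7, 3 iterations), the signal limit, an offset, the fold limit and the joining of the probe sets. The counting procedure was tested on simulated data with differences larger than those of most elastic fiber genes, so that test does not cover ratios near the cut-off. Python 3.11.15, numpy 2.4.6, pandas 2.3.3, R 4.3.3 and limma 3.58.1 were used.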

Additional observations from a re-analysis of the deposited data

How the results depend on the processing

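No paired analysis was possible because each group has 1 array. The share of higher among all genes past the cut-off in KO vs. WT was 42.9% as deposited and 72.4%, 57.4% and 52.5% after common median, quantile and loess scaling. In KOE vs. KO it was 67.1%, then 47.1%, 49.6% and 48.7%, and in KOE vs. WT 54.3%, then 66.6%, 58.2% and 51.5%.

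Under common median scaling the elastic fiber genes in KO vs. WT were 2 higher and 1 lower, where 23.2% and 8.88% of all genes were. In KOE vs. KO they were 1 higher and 3 lower, where 8.03% and 9.01% of all genes were. The higher count in KO vs. WT was 0 with quantile normalization, loess, a 2-fold limit and the mean of all probe sets. Of all genes, 14.7%, 13.0%, 4.27% and 11.3% were higher in that order. It was also 0 with scaling on the median of genes at 40 or more in every array, against 10.2% of all genes. That scaling was chosen after seeing the data. With a 2-fold limit KO vs. WT gave 1 lower, where 7.76% of all genes were. KOE vs. KO then gave 0 higher and 0 lower, where 5.26% and 2.29% of all genes were. KOE vs. WT gave 1 lower, where 5.60% of all genes were. In KOE vs. KO the mean of all probe sets gave 1 higher, where 12.3% of all genes were. Adding 40 to every signal or taking the median over probe sets gave 0 lower there, where 3.19% and 5.35% of all genes were. Fbln2 in KOE vs. KO turned to −1.39 with the mean of all probe sets, which includes a probe set at 1.48 in KOE and 12.1 in KO.

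Mfap4 stayed past the cut-off in KO vs. WT and KOE vs. WT under all 12 alternatives, with log2 ratios between −2.01 and −1.71 for KO vs. WT. Alternatives in the signal limit or the joining of probe sets could not move Mfap4, as its single probe set lies well above those limits. Eln in KO vs. WT ran between −0.79 and −0.39 and in KOE vs. KO between 0.45 and 0.81. Weak probe sets carry the widest spread, and no depth or background measure was analysed here.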
